A study of Rattus norvegicus with 6 samples.

Results

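Genes of blood pressure and sodium control, 9 in all, were measured in the renal cortex of rats given nitrilotriacetic acid trisodium monohydrate (NTA), an aminopolycarboxylate that binds metal ions, and of rats given water. They were angiotensinogen (Agt), angiotensin-converting enzyme (Ace), the thiazide-sensitive sodium-chloride cotransporter (Slc12a3), the 3 subunits of the epithelial sodium channel ENaC (Scnn1a, Scnn1b and Scnn1g), the kinase Sgk1, the mineralocorticoid receptor (Nr3c2) and the enzyme that shields it from glucocorticoids (Hsd11b2). A probe was taken as a member when its transcript accession belonged to 1 of these 9 symbols in the RefSeq gene table of rat assembly GRCr8. All 9 genes had a probe, 18 probes in all, out of 27460 named probes for 15284 genes on the array. All 9 genes and all 18 probes passed the filter on dim signal, which kept 11965 genes, and 17 of the 18 probes were well above background on all 6 arrays.

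The animals were male Sprague-Dawley (Crl:CD(SD)) rats, 5 weeks old when purchased, with a basal diet and tap water for both groups. The water group (n = 3) was given water, and the NTA group (n = 3) received the compound daily at 1000 mg/kg. The compound is a sodium salt, and the sodium given with it and its metal-binding part cannot be told apart in this design. Treatment lasted 4 weeks in both groups. Total RNA of each animal's renal cortex was hybridised to 1 single-colour Agilent array, so n counts animals, which the series calls biological replicates. The tissue is a mixture of cell types, and fewer cells of a type and less RNA per cell cannot be told apart in it.

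The renin-angiotensin-aldosterone system starts from angiotensinogen, which is cut to angiotensin I, and Ace makes angiotensin II from that. Angiotensin II constricts vessels and makes the adrenal gland release aldosterone, which acts through the mineralocorticoid receptor in the late distal nephron. There aldosterone induces Sgk1 and raises sodium uptake through ENaC, while Slc12a3 carries sodium chloride in the distal convoluted tubule just upstream. In kidney, angiotensinogen is made in the proximal tubule, and Hsd11b2 in aldosterone-sensitive cells turns active glucocorticoid into its inactive form.

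Of 61657 probes, 68.4% (NTA 2) to 73.5% (water 1) had a signal well above background, and no spot of a member was saturated. Values are log2 signal relative to the array's 75th percentile, so 0 is the brightness at that percentile, and levels of different probes cannot be compared. Water 1 and NTA 2 shared slide 3 and the later of 2 scan days, water 2 and water 3 lay on slide 1 and NTA 1 and NTA 3 on slide 2, both scanned on the earlier day, where slide and group therefore cannot be told apart. All 10 proximal tubule markers were tested, and their mean level was 6.02 to 6.11 in water and 5.92 to 6.12 in NTA. Of the 9 adrenal markers 5 were tested, with a mean level of -1.56 to -1.28 in water and -1.28 to -1.12 in NTA. The 3 NTA means all lay above the water means, but only just, with -1.2753 in NTA 3 against -1.2769 in water 3. The steroid enzymes Cyp21a1 (0.48 ± 0.14, limma adjusted p = 0.288) and Hsd3b1 (0.81 ± 0.28, adjusted p = 0.352) had unadjusted p-values of 0.013 and 0.029. Their groups did not overlap, which held for 20.2% of all genes. The rest of those tested stood at -0.29 (Cyp11a1), 0.008 (Th) and 0.011 (Pnmt), and the median of the adrenal list was 0.011. The defining adrenal markers Cyp11b1 and Star were well above background on no array, and the part of the adrenal list in the results was not tested. Of the liver markers Alb, Ttr and Tat were well above background on no array. In the distal convoluted tubule list 4 of 7 markers were tested, and Pvalb, a defining marker, was well above background on no array. In the list for connecting tubule and principal cells 11 of 12 were tested.

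None of the 9 genes passed the test between NTA and water (limma, Benjamini-Hochberg adjusted p from 0.349 to 0.931), where 0.0752% of all 11965 genes passed. At an unadjusted p under 0.05 there was 1 of 9, Agt, which was higher in NTA, against 12.3% of all genes in either direction and 7.76% higher. The groups did not overlap for 1 of 9, again Agt, against 20.2% of all genes, 13.0% higher and 7.23% lower in NTA. Of the 9 genes, 7 had a lower mean in NTA, against 43.6% of all genes, with a median log2 difference of -0.11 against 0.02 over all genes. Within the earlier scan day 5 of the 9 were lower in NTA, and 5 of the 9 were lower in NTA 2 than in water 1. The share over all genes was not taken for these counts. With the brightest probe, the 95% interval of the difference lay inside a 2-fold change in either direction for 7 of the 9, all but Agt and Sgk1. Intervals of dimmer probes reached past a 2-fold fall for Ace (to -1.14 and -1.07), Scnn1a (to -1.04) and Nr3c2 (to -1.32). These intervals bound the size of a difference and do not show that the groups were alike.

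**Figure D1:**
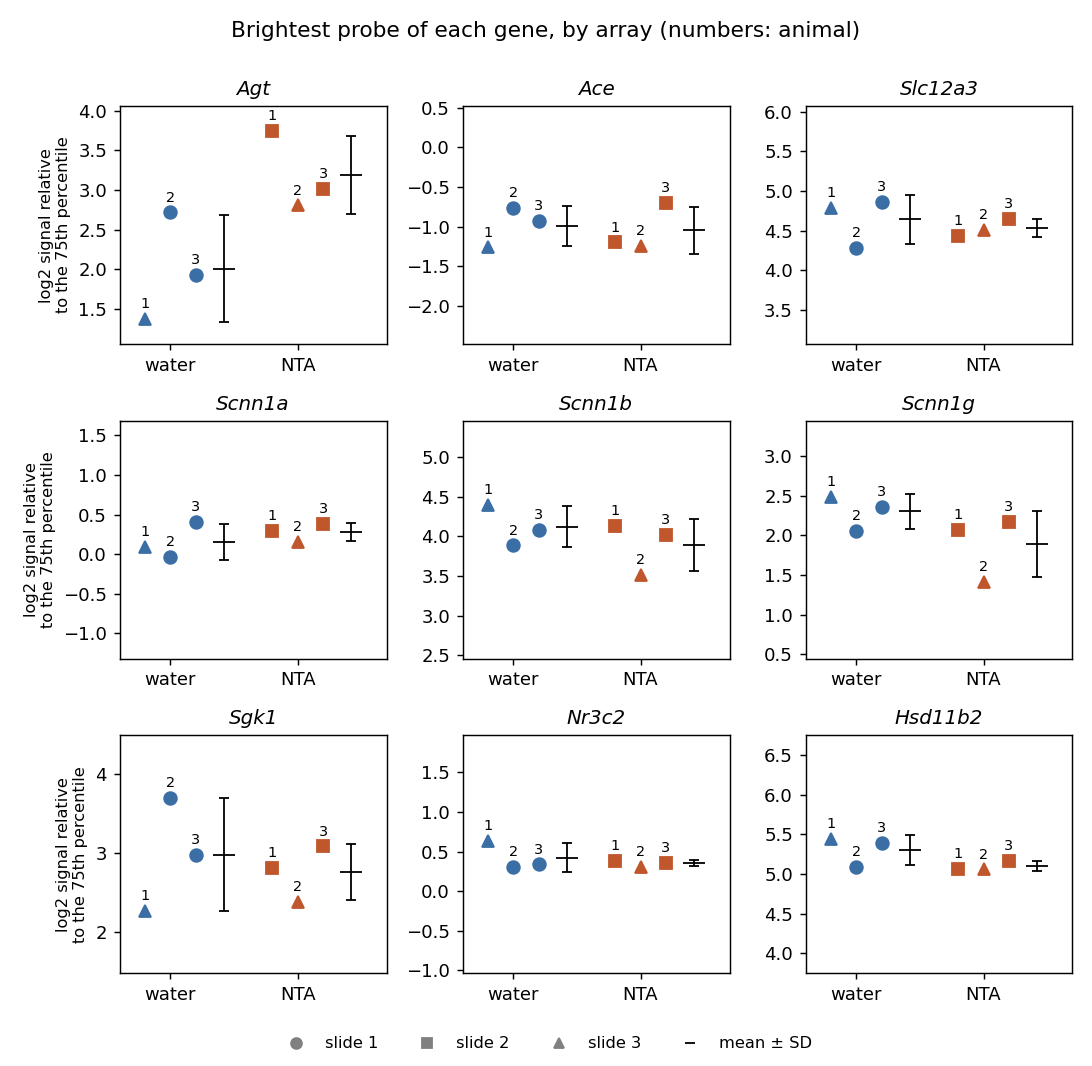
Log2 signal relative to the array's 75th percentile (y axis, 3 log2 units in every panel) for the brightest probe of each gene in 3 water and 3 NTA animals. Each point is 1 array, numbered by animal, its shape gives the slide, and the bar is the mean ± SD. In the Agt panel all NTA points lie above all water points, while in the other 8 panels the groups overlap.

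Angiotensinogen, the precursor of all angiotensins, had the largest difference of the 9. Its brighter probe, A_64_P154849, read 1.37, 2.72 and 1.93 in water 1 to 3 and 2.81 to 3.74 in NTA, with 3.74 in NTA 1, 2.81 in NTA 2 and 3.01 in NTA 3. Every NTA array lay above every water array, but the lowest NTA array and the highest water array, water 2, were close. The means were 2.01 ± 0.68 in water and 3.19 ± 0.49 in NTA (SD, n = 3 each). The log2 difference was 1.18 ± 0.40 (SE), or 2.27-fold with a 95% interval of 1.14 to 4.51 (limma unadjusted p = 0.0274, adjusted p = 0.349). An exact two-sided permutation test over the 6 arrays gave p = 0.1, the smallest that 3 against 3 can give. A difference at least this high was seen for 0.777% of all genes, but the SE was larger than that of 96.8% of them. The second Agt probe, A_43_P13272, read 0.28, 1.60 and 0.70 in water and 2.76, 1.65 and 2.05 in NTA. Both probes placed the animals in the same order within each group and without overlap between groups, and the second gave 1.29 ± 0.42. Within the shared slide NTA 2 exceeded water 1 by 1.43, and within the earlier scan day the difference was 1.05. Leaving out 1 array gave 0.86 (without water 1) to 1.54 (without water 2), and the adjusted p ran from 0.266 to 0.590 over all alternatives.

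The liver list, of which 4 of 7 were tested, had a mean level between -2.25 and -1.24 in water, a range that held all 3 NTA means. Of its genes Apoa1, an apolipoprotein, had an unadjusted p of 0.026 (limma adjusted p = 0.349, difference 0.67 ± 0.22, groups overlapping). Apoa1 was dim, at -5.65 to -4.58 over the 6 arrays. Cyp2c11 of the same list went the other way, at -1.39 ± 0.80, and Fga and Fgb both stood at 0.21. The defining liver markers Alb and Ttr were well above background on no array. The proximal tubule list had a median log2 difference of -0.06 over 10 markers. Their part in the Agt values was not tested.

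Ace, the peptidase of endothelium and proximal brush border that makes angiotensin II, had 3 probes. The brightest, A_64_P098230, read -1.26, -0.77 and -0.93 in water and -1.20, -1.24 and -0.70 in NTA. The groups overlapped fully, with the highest and the lowest of the 6 values in different groups. The log2 difference was -0.06 ± 0.19 (95% interval -0.54 to 0.42, adjusted p = 0.931). The 2 dimmer probes stood at -0.30 ± 0.34 and -0.37 ± 0.29, and in all 3 water 1 and NTA 2 were the lowest of their groups. Endothelial markers had a mean level of 0.56 to 0.73 in water and 0.52 to 0.62 in NTA.

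The mineralocorticoid receptor Nr3c2 had the smallest SE of the 9. Its brightest probe, A_43_P15261, read 0.63, 0.30 and 0.34 in water and 0.38, 0.31 and 0.36 in NTA. The 3 NTA animals spanned 0.07 log2 units and lay between water 2, the lowest, and water 1, the highest. The difference was -0.07 ± 0.10 (95% interval -0.33 to 0.18, adjusted p = 0.812). A second probe, A_64_P014537, gave -0.12 ± 0.18. The third, A_44_P158441, read -4.56, -5.06 and -4.58 in water and -4.49, -5.41 and -5.75 in NTA, a difference of -0.48 ± 0.34. That probe is near the limit of detection: it was well above background on 3 of 3 water arrays and on 1 of 3 NTA arrays, NTA 1.

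Hsd11b2, which inactivates glucocorticoids in aldosterone target cells, had 1 probe. It read 5.44, 5.09 and 5.39 in water and 5.06, 5.06 and 5.17 in NTA. The NTA animals lay close together at the lower end of the water range, and water 2 fell among them. The difference was -0.21 ± 0.11 (95% interval -0.48 to 0.06, adjusted p = 0.497).

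Sgk1, the aldosterone- and glucocorticoid-induced kinase that keeps ENaC at the cell surface, differed more between animals than between groups. Its probe read 2.28, 3.70 and 2.97 in water and 2.82, 2.39 and 3.09 in NTA. The water animals spanned 1.42 log2 units, wider than the NTA animals and enclosing all of them. The difference was -0.22 ± 0.38 (95% interval -1.16 to 0.72, adjusted p = 0.852), and the SE exceeded that of 96.2% of all genes. The 2 arrays of the later scan day were the lowest of their groups, and NTA 2 exceeded water 1 by 0.11 there, while the animals of the earlier day gave -0.39. Without water 2 the difference was 0.14, so no direction can be given.

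The gene whose profile over the 6 arrays was most like that of Sgk1, by the root mean square difference of values centred on each gene's mean, was Per1, a clock gene that glucocorticoids also induce. It read -2.58, -1.51 and -1.86 in water and -1.87, -2.36 and -1.77 in NTA, and the root mean square difference was 0.16 over 6 arrays. Like Sgk1, it was lowest in water 1 and NTA 2 and highest in water 2. In the corticosteroid response list 15 of 16 genes were tested, and 0 passed in either direction, against 0.0752% of all genes (limma, lowest adjusted p = 0.623). At an unadjusted p under 0.05 there were 0, against 12.3% of all genes. The list had 6 genes above 0 and 9 below, against 43.6% of all genes below 0, with a median of -0.02. The groups did not overlap for 0 of the 15, against 20.2% of all genes. Among the genes of smallest p were Usp2, a deubiquitinase (0.25 ± 0.18), Hsd11b1, the glucocorticoid-activating counterpart of Hsd11b2 (0.08 ± 0.09) and endothelin 1, Edn1 (0.25 ± 0.28). Errfi1, a feedback inhibitor of EGF receptor signalling, stood at -0.07 ± 0.29 and Ndrg2 at 0.00 ± 0.14.

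Spread between animals was large in this list. Fkbp5, a glucocorticoid-induced chaperone partner, read 0.95, 2.44 and 3.53 in water and 1.80, 1.66 and 3.16 in NTA. Tsc22d3, also called GILZ, read 1.54, 2.32 and 2.01 in water and 1.68, 1.38 and 2.48 in NTA. Both were lowest in water 1 and NTA 2 within their groups, and Fkbp5 ranged within water over more than the difference between groups for any member. In the list 8 of 15 genes, and 3 of the 9 members (Agt, Ace and Sgk1), had both arrays of the later scan day at the bottom of their groups, against 11.1% of all genes. Both arrays were at the top for 2 of the 15, 0 of the 9 and 1770 of 11957 genes. The counts at the bottom include Sgk1, Per1, Fkbp5 and Tsc22d3, whose pattern is described above, so they are no independent support for it. Scan day, slide and animal cannot be told apart in those 2 arrays. Per1, Fkbp5 and Tsc22d3 share no probe with Sgk1, and the last 2 were chosen after their values were seen.

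Slc12a3, the sodium-chloride cotransporter of the distal convoluted tubule, had 3 probes. The brightest, A_64_P015612, read 4.78, 4.28 and 4.86 in water and 4.43, 4.51 and 4.65 in NTA. The NTA animals lay between water 2 at the bottom and water 1 and 3 at the top, so the water range held all of them. The difference was -0.11 ± 0.17 (95% interval -0.52 to 0.30, adjusted p = 0.830). The other probes gave -0.11 ± 0.20 and 0.03 ± 0.24, and in all 3 probes the NTA animals were closer together than the water animals (SD 0.08 to 0.13 against 0.31 to 0.48). Distal convoluted tubule markers had a mean level of 3.02 to 3.31 in water and 3.05 to 3.18 in NTA, with water 2 lowest and water 1 highest. Their median difference was -0.04 over 4 markers.

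ENaC is built from an alpha, a beta and a gamma subunit, and its abundance in the apical membrane of connecting tubule and principal cells limits late sodium uptake. Scnn1a, the alpha subunit, had 2 probes that differed in sign. The brighter, A_43_P12580, read 0.09, -0.04 and 0.40 in water and 0.29, 0.16 and 0.39 in NTA, and its difference was 0.13 ± 0.13 (95% interval -0.20 to 0.45, adjusted p = 0.743). The dimmer, A_44_P1070856, read -3.10, -3.71 and -3.13 in water and -3.65, -4.16 and -3.40 in NTA, a difference of -0.42 ± 0.25. With the mean of both, Scnn1a stood at -0.15, so no direction can be given for it.

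Scnn1b, the beta subunit, read 4.40, 3.89 and 4.08 in water and 4.14, 3.52 and 4.02 in NTA with its brighter probe, A_42_P817086. NTA 2 was the lowest of the 6 and water 1 the highest, while the other 4 animals overlapped. The difference was -0.23 ± 0.21 (95% interval -0.74 to 0.28, adjusted p = 0.697), and the second probe gave -0.27 ± 0.16 with the same order of arrays at both ends. Scnn1g, the gamma subunit, read 2.48, 2.06 and 2.36 in water and 2.07, 1.41 and 2.18 in NTA with its 1 probe. Here too water 1 was highest and NTA 2 lowest, and NTA 1 and NTA 3 lay just above water 2. The difference was -0.42 ± 0.23 (95% interval -0.98 to 0.15, adjusted p = 0.518).

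For Scnn1b and Scnn1g the highest array, water 1, and the lowest, NTA 2, were the pair on the shared slide. Leaving out either of them must by arithmetic bring the differences of -0.23 and -0.42 nearer to 0. Without NTA 2 the differences were -0.043 and -0.18, and without water 1 they were -0.090 and -0.33. Within the shared slide NTA 2 lay 0.89 below water 1 for Scnn1b (-0.89) and 1.07 below it for Scnn1g (-1.07). Within the earlier scan day, with 2 animals a group, the differences were 0.10 and -0.09. Scnn1a stood at 0.07 and 0.15 in the same comparisons with its brighter probe. With its dimmer probe, A_44_P1070856, it stood at -1.06 and -0.10, so its probes differed here too. In the list for connecting tubule and principal cells, which holds none of the 9 genes, the mean level was 0.90 to 1.31 in water and 1.05 to 1.08 in NTA. There water 1 was also the highest array, at 1.31, but NTA 2, at 1.08, was not the lowest. The list had 5 genes above 0 and 6 below, against 43.6% of all genes below 0, with a median of -0.02. Aqp2, the water channel that defines principal cells, read 6.79, 6.56 and 6.63 in water and 6.92, 6.65 and 6.53 in NTA. Trpv5, the calcium channel of the connecting tubule, had the lowest difference of the list, -0.43 (limma adjusted p = 0.425). Slide and scan day cannot be told apart from the animals in the 2 arrays of the shared slide.

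**Figure D2:**
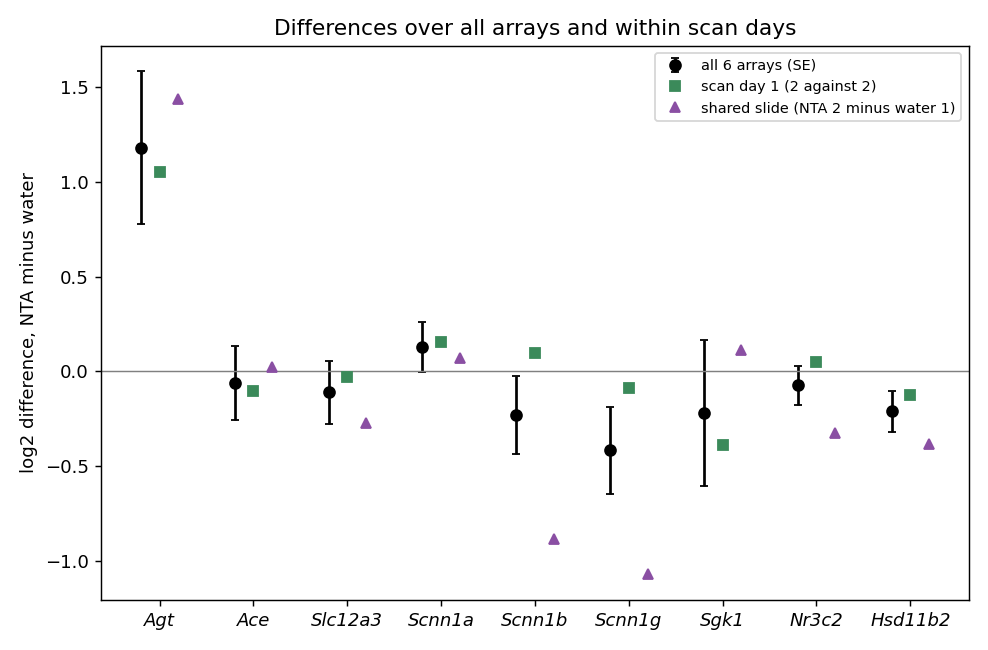
Log2 difference between NTA and water (y axis) for each of the 9 genes over all 6 arrays (circles, ± SE), within the earlier scan day (squares, 2 animals a group) and within the shared slide (triangles, NTA 2 minus water 1). Agt is above 0 in all of these comparisons, and Scnn1b and Scnn1g are near -1 within the shared slide and near 0 within the earlier scan day.

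Scnn1b and Scnn1g are next to each other on rat chromosome 1 and had similar profiles over the arrays. The root mean square difference between them was 0.14 over 6 arrays, and 0.393% of all genes were closer to Scnn1b than Scnn1g was. Among all pairs of members only Slc12a3 with Hsd11b2 (0.10) and Nr3c2 with Hsd11b2 (0.12) were closer, and these genes vary less. Of all genes, 0.234% were closer to Slc12a3 than Hsd11b2 was, and 14.5% were closer to Nr3c2 than Hsd11b2 was. A close profile was therefore not particular to Scnn1b and Scnn1g among the members. The 250 bases before each start site are shown because these neighbours varied alike across animals. They are from RefSeq, assembly GRCr8, plus strand, chr1:185735975-185736224 for Scnn1g and chr1:185861126-185861375 for Scnn1b. Capitals mark the GC box (GGGCGG on either strand) and the antioxidant response core (TGACNNNGC on either strand).
Scnn1g: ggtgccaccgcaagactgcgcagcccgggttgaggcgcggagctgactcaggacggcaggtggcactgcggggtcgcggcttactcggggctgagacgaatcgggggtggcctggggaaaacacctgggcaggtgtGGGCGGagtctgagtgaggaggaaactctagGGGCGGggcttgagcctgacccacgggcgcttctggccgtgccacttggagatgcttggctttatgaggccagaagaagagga
Scnn1b: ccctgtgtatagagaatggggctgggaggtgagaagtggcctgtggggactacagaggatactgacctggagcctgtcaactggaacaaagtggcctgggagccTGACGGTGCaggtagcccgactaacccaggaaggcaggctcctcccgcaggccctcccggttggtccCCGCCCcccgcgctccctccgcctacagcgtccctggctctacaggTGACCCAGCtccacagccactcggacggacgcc
In these windows Scnn1g held 2 GC boxes, at -114 and -83 from the start site, and Scnn1b held 1, at -79, and 2 antioxidant response cores, at -146 and -33. Over all 33469 windows of this length, 30.5% held the GC box and 10.1% the core. The steroid receptor half-site AGAACA, searched on both strands and present in 17.5% of all windows, was in neither, nor in the windows of Ace, Slc12a3 and Sgk1 (3 start sites). A TATAAA box, present in 12.9% of all windows, was in that of Slc12a3, at -32, and in 2 of the 3 of Sgk1. In the window of Ace it lay on the opposite strand, as TTTATA, at -42. The other members with no entry here were Agt, Scnn1a, Nr3c2 and Hsd11b2. A match is a description of letters, and none shows that a factor binds there.

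Each of the 18 probes was also fitted as a row of its own among 42071 probes, of which 0.0618% passed, 0.0594% higher and 0.00238% lower in NTA. None of the 18 passed (limma adjusted p from 0.400 to 0.979), while 2, both of Agt, had an unadjusted p under 0.05, both higher in NTA, against 10.9% of all probes in either direction and 6.2% higher. The groups did not overlap for the same 2 probes, against 18.8% of all, 10.9% higher and 7.9% lower. Of the 6 genes with more than 1 probe, Slc12a3 and Scnn1a had probes of both signs, and for Ace, Scnn1b and Nr3c2 every probe was below 0. In all, 14 of 18 probes were below 0, against 47.0% of all probes, and the probes of a gene share their transcript.

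**Figure D3:**
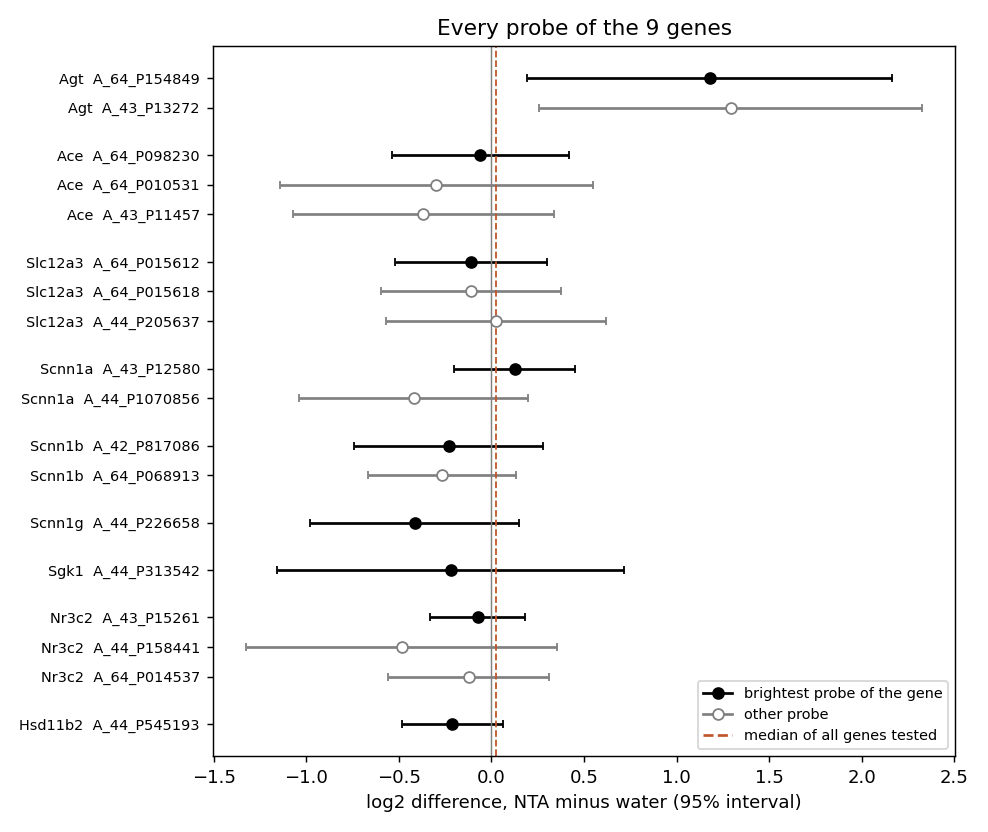
Log2 difference between NTA and water (x axis) with its 95% interval for every probe of the 9 genes, from the fit of single probes. Filled points are the brightest probe of a gene, and the dashed line is the median of all genes at 0.02. The intervals of both Agt probes lie above 0 and those of the other 16 probes include 0.

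Around the members, 13 of 19 other genes of the renin-angiotensin system were tested, and 0 passed in either direction (limma, lowest adjusted p = 0.349). At an unadjusted p under 0.05 there were 2, both higher in NTA, against 12.3% of all genes in either direction and 7.76% higher. The groups did not overlap for 5 of the 13, against 20.2% of all genes. Of the 13, 8 were above 0 and 5 below, against 43.6% of all genes below 0, with a median of 0.06. Neprilysin, Mme, a brush border peptidase that cuts angiotensins, read 2.60, 3.53 and 2.74 in water and 4.18, 3.59 and 3.65 in NTA. Its groups did not overlap, water 2 was close to NTA 2, and the difference was 0.85 ± 0.29 (adjusted p = 0.349). As for Agt, water 2 was the highest water animal and NTA 1 the highest NTA animal. Prolyl endopeptidase, Prep, read 3.66, 3.77 and 3.45 in water and 4.73, 4.09 and 3.92 in NTA, again without overlap, a difference of 0.62 ± 0.23 (adjusted p = 0.363).

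Aminopeptidase A, Enpep, which shortens angiotensin II, stood at 0.21 ± 0.10, and neurolysin, Nln, at -0.14 ± 0.07. Aminopeptidase N, Anpep, stood at -0.02 ± 0.25. The angiotensin II receptor Agtr1a, chosen after its values were seen for its role, stood at -0.20 (adjusted p = 0.559). Agtr2, Cma1, Ctsg and Mas1 were not well above background on all arrays of either group, and Lnpep and Atp6ap2 had no probe under these names.

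The list of regulators of Slc12a3 and ENaC holds mostly kinases, proteases and ubiquitin ligases, with a few distal tubule genes such as Calb1 that are no such regulators. Of its 18 genes, 14 were tested and 0 passed, against 0.0752% of all genes (limma, lowest adjusted p = 0.520). At an unadjusted p under 0.05 there were 0, against 12.3% of all genes. Of the 14, 4 were above 0 and 10 below, against 43.6% of all genes below 0, with a median of -0.08. The groups did not overlap for 2 of the 14, against 20.2% of all genes. The differences ran from -0.20 to 0.13, the highest being Calb1, a calcium-binding protein. Cab39, a partner of the kinase SPAK, stood at -0.11 ± 0.06, Ppp1r1a, a phosphatase inhibitor, at 0.13 ± 0.07, the ENaC-cleaving protease Prss8 at -0.15 ± 0.09, and the kinase Wnk4 at -0.18 ± 0.11. Wnk1, the other WNK kinase, stood at -0.12 ± 0.16 with probes from -0.20 to 0.00, and the protease Furin at -0.05 ± 0.09. Nedd4l, the ubiquitin ligase that removes ENaC from the membrane, had no probe under its name.

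Of 20 other sodium, potassium and chloride transport genes of the nephron, 18 were tested and 0 passed (limma, lowest adjusted p = 0.282). Of the 18, 7 were above 0 and 11 below, against 43.6% of all genes below 0, with a median of -0.10, which became -0.01 without water 1. The groups did not overlap for 2 of the 18, against 20.2% of all genes. At an unadjusted p under 0.05 there was 1, higher in NTA, against 12.3% of all genes in either direction and 7.76% higher. That gene was Fxyd2, the gamma subunit of the sodium pump, at 7.20, 7.13 and 7.11 in water and 7.33, 7.37 and 7.34 in NTA. Its groups did not overlap although the difference was small, 0.20 ± 0.06. The potassium channel Kcnj16 stood at -0.33 ± 0.15 and the anion exchanger pendrin, Slc26a4, at -0.21 ± 0.11. The phosphate carrier Slc34a1 stood at 0.04 ± 0.07 and the pump subunit Atp1b1 at 0.01 ± 0.07.

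**Figure D4:**
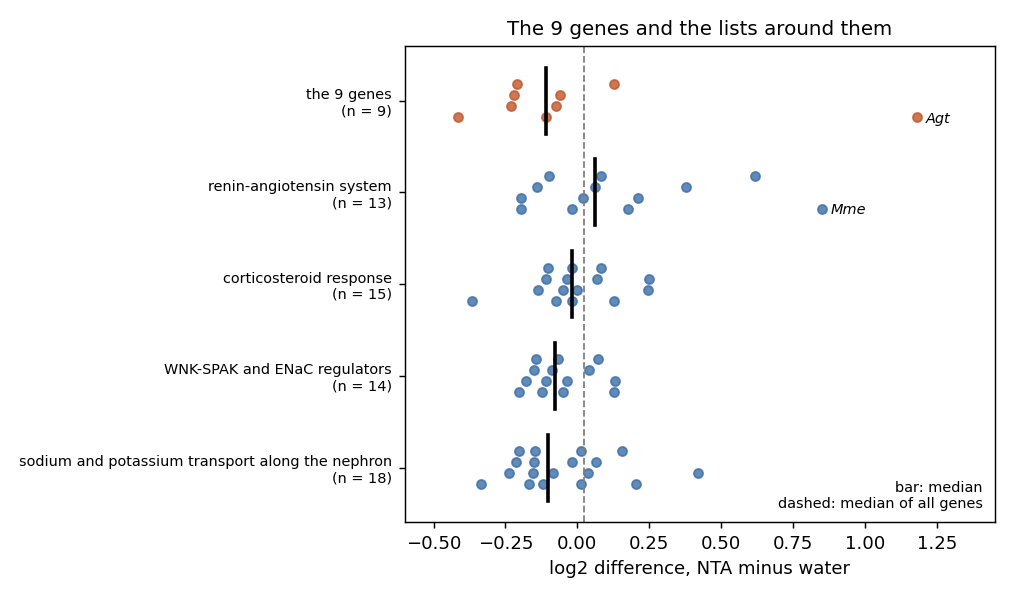
Log2 difference between NTA and water (x axis) of single genes (points) for the 9 members and for 4 lists around them, with the list's median as a bar and the median of all genes, 0.02, as a dashed line. The highest genes of the top rows are named, and Agt at 1.18 and Mme at 0.85 are the highest points of the figure, with Prep at 0.62 next.

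By the same measure as for Sgk1, the tested gene most like Agt over the 6 arrays was Aadat, an aminotransferase, at 3.70, 4.96 and 4.03 in water and 5.85, 5.06 and 5.19 in NTA. The root mean square difference was 0.08, against 0.76 for the spread of Agt about its own mean. For the other members the nearest genes were Proc (Ace), Ddn (Slc12a3), Zfp707l1 (Scnn1a), Necab2 (Scnn1b), Cpne6 (Scnn1g), Ccl27 (Nr3c2) and Jam3 (Hsd11b2), at 0.02 to 0.09. With 6 arrays and 11965 genes, a near profile is found for any gene, and nothing about function follows from it.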

How the data were processed

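Spot values come from Agilent Feature Extraction, version 10.7.1.1 per the file headers, while the submitters' processing notes name version 10.7. The deposited intensity of a spot is its processed signal on a linear scale after background subtraction, with no scaling between arrays. The authors also deposited a table of ratios, each the processed signal over 1 constant per array (within 0.072% of its 75th percentile, from the values), which served as an alternative. Array annotation and RefSeq table rest on different builds, so probes were named by transcript accession alone.

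Signals were taken to log2 and each array was set to 0 at its 75th percentile, computed without controls. Spots marked as outliers and all controls, spike-ins included, were dropped. The filter asked that 3 of 3 arrays in either group lie well above background, and the brightest probe that passed stood for its gene. The groups were compared in limma 3.58.1 (R 4.3.3, lmFit and eBayes, 6 arrays), two-sided, adjusted (Benjamini-Hochberg) over all 11965 genes, threshold 0.05. Probes were fitted likewise. The fit was tested on simulated data. List genes named are the 4 of smallest p and the 2 of highest mean signal among the rest of each pathway list, except some genes not reported here. Members and lists were chosen with earlier results of these data known. The alternatives were other scalings, filters, probe summaries, variance models, slide, scan day and replicate blocks, and leaving out arrays. The scan day subset was added after seeing the data. The median signal replaced the mean signal in normexp, as the files hold no mean signal. The number of arrays limits the precision. Probe sequences were not used here.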

Additional observations from a re-analysis of the deposited data

How the results depend on the processing

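No member passed in any alternative run. The differences of Agt (0.86 to 1.54), Slc12a3, Scnn1g and Hsd11b2 kept their sign in all 18, and those of the other 5 did not. Ace stood at 0.012 under normexp and 0.021 with slide as a fixed block, Scnn1a at -0.15 with the mean of its probes, and Sgk1 at 0.11 with slide as a fixed block. Within the earlier scan day Nr3c2 stood at 0.050 and Scnn1b at 0.10. With 1 array left out, Ace ran from -0.23 to 0.051, Sgk1 from -0.57 to 0.14 and Nr3c2 from -0.14 to 0.030. The Slc12a3 probe A_64_P015618 ran from -0.30 to 0.089 (0.088 within the earlier scan day), A_44_P205637 from -0.15 to 0.30 (-0.39 with slide fixed), and the Nr3c2 probe A_64_P014537 from -0.23 to 0.045 (0.072 within that day). The Nr3c2 probe A_44_P158441, dim like A_64_P014537, stood at 0.045 under normexp. The cause of these reversals was not tested.

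Among list genes, normexp gave Atp1b1 -0.041, and quantile normalization gave Slc34a1 -0.031, Ndrg2 -0.034 and Atp1b1 -0.11. With slide fixed Furin stood at 0.13, Ndrg2 at -0.39 and Anpep at 0.14, and the authors' ratio table gave Ndrg2 -6.6e-05. Within the earlier scan day Errfi1 stood at 0.059, Wnk1 at 0.080, Slc34a1 at -0.0099 and Atp1b1 at -0.0043. With 1 array left out Anpep ran from -0.27 to 0.18, Hsd11b1 from -0.00023 to 0.14, Edn1 from -0.042 to 0.51, Errfi1 from -0.37 to 0.13, Ndrg2 from -0.078 to 0.14, Wnk1 from -0.28 to 0.027, Furin from -0.12 to 0.013, Slc34a1 from -0.016 to 0.065 and Atp1b1 from -0.042 to 0.055. The median of the transport list ran from -0.10 to -0.0097 (without water 1) with 1 array left out and stood at -0.040 within the earlier scan day.

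Over all genes, 9 passed in the main setting, 20 under normexp, 38 with trend and robust eBayes, 5 with slide fixed, and 0 under quantile normalization, without a filter, with scan day fixed or within the earlier scan day. With 1 array left out 0 to 4 passed (4 without NTA 2). At an unadjusted p under 0.05 limma gave 1068 to 1639 genes over all these settings. Over all probes 26 passed, against 77 under normexp, 3 without a filter, 106 with trend and robust, 0 with slide fixed, 9 with scan day fixed, 0 within that day and 0 to 9 with 1 array left out. With the replicate number as a block 0 genes and 0 probes passed. Same-numbered animals did not deviate together (r of 0.07, -0.09 and 0.04), and water 2 correlated best with NTA 3 (0.10), so the numbers were not taken as pairs.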
